A study of Mus musculus with 3 samples.

Results

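The enzymes that modify and crosslink collagen were followed through skin wound healing as 10 genes, picked by symbol from the 32285 genes listed for each section. The 10 members were the lysyl oxidases *Lox*, *Loxl1*, *Loxl2*, *Loxl3* and *Loxl4*, the lysyl hydroxylases *Plod1*, *Plod2* and *Plod3*, and the catalytic prolyl 4-hydroxylase subunits *P4ha1* and *P4ha2*. All 10 had at least 1 transcript in each of the 3 sections. Together they made up 0.133% of the transcripts on Day 3, 0.186% on Day 7 and 0.0712% on Day 14. On Day 7 *Loxl1* and *Loxl2* stood more than 2-fold above Day 3, and by Day 14 every member with enough counts except *P4ha1* stood more than 2-fold below Day 7. On Day 3 the enzymes stood higher in spots rich in new wound matrix genes. *Col1a1*, which encodes the alpha 1 chain of type I collagen, stood slightly lower there, at 0.824 times its level in the other spots.

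Collagen chains are modified both inside the cell and after secretion before they bear load. In the endoplasmic reticulum, prolyl 4-hydroxylase converts prolines to 4-hydroxyproline, without which the triple helix melts at body temperature, and lysyl hydroxylases convert chosen lysines to hydroxylysine. After secretion, lysyl oxidases, which need copper, turn lysine and hydroxylysine side chains into aldehydes that condense into covalent crosslinks between molecules. The hydroxylases need iron, ascorbate, 2-oxoglutarate and oxygen, and several of these genes are known targets of hypoxia-inducible factor.

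The samples were wounded skin of C57BL/6J mice at 3 days, 7 days and 14 days post injury, without any other treatment or allele in the labels. Each day was represented by 1 section (n = 1 per day) on a Visium capture area, a grid of barcoded spots on glass that capture poly-adenylated RNA from the tissue lying on them. Per the study's methods the wounds were punched in dorsal skin and collected with a wider punch. No unwounded section was among the samples, so there was no control level, and no difference between days could be tested. Each transcript was counted once through its unique molecular identifier (UMI).

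The sections held 664, 549 and 697 spots under tissue with 1772259, 4442962 and 4611723 UMIs on Days 3, 7 and 14, and the median spot held 1513, 6687 and 4827 UMIs. Day 3 was therefore the least precise section, and 144 of its spots held fewer than 500 UMIs against 10 and 8 on the later days. The spots marked as tissue held 51.0%, 40.8% and 49.4% of all UMIs of their capture areas on Days 3, 7 and 14. Levels are those of the marked spots unless stated, and whether unmarked spots lay over tissue was not tested. All 10 genes of an epidermis list had UMIs in every section, as skin should, but skeletal muscle genes were also abundant, with 66466, 228417 and 267850 UMIs of a list of 10. Levels are given as CPM, the UMIs of a gene per 1000000 UMIs of all genes under tissue. Values in brackets are 95% intervals that cover counting error only, not the spread between animals. A spot covers several cells, so fewer cells of a type and less RNA per cell cannot be told apart. All 3 capture areas carried the same 4992 spot barcodes, as is usual for this product, so shared barcodes do not mean shared tissue.

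Promoter sequences of 5 members were at hand in the RefSeq table on GRCm38.p6. Those of *P4ha1* and *P4ha2* are shown because these paralogues took different courses between days. Both were also higher on Day 3 in spots ranked high by a hypoxia-response list. Both had larger ratios that day in spots ranked by some other gene lists, given below. Each is the 250 bases before the RefSeq transcription start, 5′ to 3′, on the plus strand, at chr10:59323046-59323295 for *P4ha1* and chr11:54100674-54100923 for *P4ha2*. The *P4ha1* window lies just upstream of the annotated gene, and the *P4ha2* window lies in an intron of a longer GENCODE transcript that starts further upstream. Capitals mark ACGTG or GCGTG on either strand, the core letters bound by hypoxia-inducible factor, with overlapping matches counted separately.
P4ha1: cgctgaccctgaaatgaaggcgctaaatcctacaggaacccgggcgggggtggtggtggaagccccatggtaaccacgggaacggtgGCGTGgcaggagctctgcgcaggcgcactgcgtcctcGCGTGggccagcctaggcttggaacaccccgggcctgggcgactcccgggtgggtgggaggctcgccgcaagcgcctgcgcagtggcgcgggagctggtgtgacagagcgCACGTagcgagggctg
P4ha2: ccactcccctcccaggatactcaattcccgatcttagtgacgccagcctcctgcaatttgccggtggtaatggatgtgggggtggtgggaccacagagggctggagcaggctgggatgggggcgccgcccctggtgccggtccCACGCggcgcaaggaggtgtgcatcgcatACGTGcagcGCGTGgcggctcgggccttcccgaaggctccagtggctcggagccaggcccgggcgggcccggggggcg
These windows held 3 matches each. The window of *Plod3*, which overlaps an exon of a neighbouring gene and is not printed, held 4, while *Plod1* and *Loxl4* held 1 each. Of 32817 promoter windows of this length, 38.6% held at least 1 match, 6.58% at least 3 and 2.58% at least 4. A match is a stretch of letters and not a shown binding site.

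All 10 genes are protein coding. In GENCODE M21 on GRCm38, the assembly also called mm10, *Lox* lies on chromosome 18 and *Loxl1* at chr9:58287738-58313186. *Loxl2* lies at chr14:69609068-69695834, *Loxl3* at chr6:83034173-83052562 and *Loxl4* at chr19:42593982-42612813. The lysyl hydroxylase genes lie at chr4:147909753-147936767 for *Plod1*, chr9:92542223-92608428 for *Plod2* and chr5:136987019-136996648 for *Plod3*. *P4ha1* lies at chr10:59323296-59373304 and *P4ha2* at chr11:54100095-54131665.

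The first question was how the level of each enzyme differed between the inflammatory, proliferative and remodelling days. A gene was counted when it had at least 50 UMIs over both sections, and a member is called higher or lower at 2-fold. *Loxl4* was not counted in any pair of days. From Day 3 to Day 7, 2 of the 9 counted members were at least 2-fold higher, beside 8.04% of all counted genes, and 0 were at least 2-fold lower, beside 6.49%. From Day 7 to Day 14, 8 of 9 were at least 2-fold lower, beside 7.34%, and 0 were higher, beside 10.9%. Day 14 against Day 3 gave 6 of 9 lower, beside 6.83%, and 0 higher, beside 14.4%. The median log2 ratio of the counted members was -0.10, -1.40 and -1.18 for these 3 pairs in turn, where the median of all counted genes was 0.04, 0.13 and 0.18. The 3 pairs share sections and are not independent of each other. When every spot was given equal weight, through the mean of spot CPM, 5 members were 2-fold lower on Day 14 than on Day 7 and 2 were lower than on Day 3, beside 6.79% and 6.87% of all counted genes. With the spots not marked as tissue added these counts were 5 and 3, beside 5.70% and 5.89%.

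Cell type makeup moved between the days as well. A list of 10 matrix fibroblast genes stood at 33816, 53169 and 23660 CPM on Days 3, 7 and 14. A granulation list of 10 genes linked to new wound matrix stood at 1501, 9345 and 1862 CPM. That list is not specific to fibroblasts, since the paper reports *Fn1*, one of its genes, in some macrophage subclusters as well. The macrophage list went from 4493 to 2810 and 1130 CPM, and the fat list from 7196 to 7211 and 1881 CPM. The muscle list went from 37504 to 51411 and 58080 CPM. All 10 genes of each of these lists had UMIs in every section. The hair follicle list, with UMIs of 3, 8 and 9 of its 9 genes, stood at 3.39, 5.40 and 4944 CPM, with *Krt25*, *Krt71*, *Krt28*, *Krt35*, *Krt31* and *Krt34* at 0 on Day 3 and *Krt34* at 0 on Day 7. Their part in the enzyme levels between days was not tested.

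**Figure D1:**
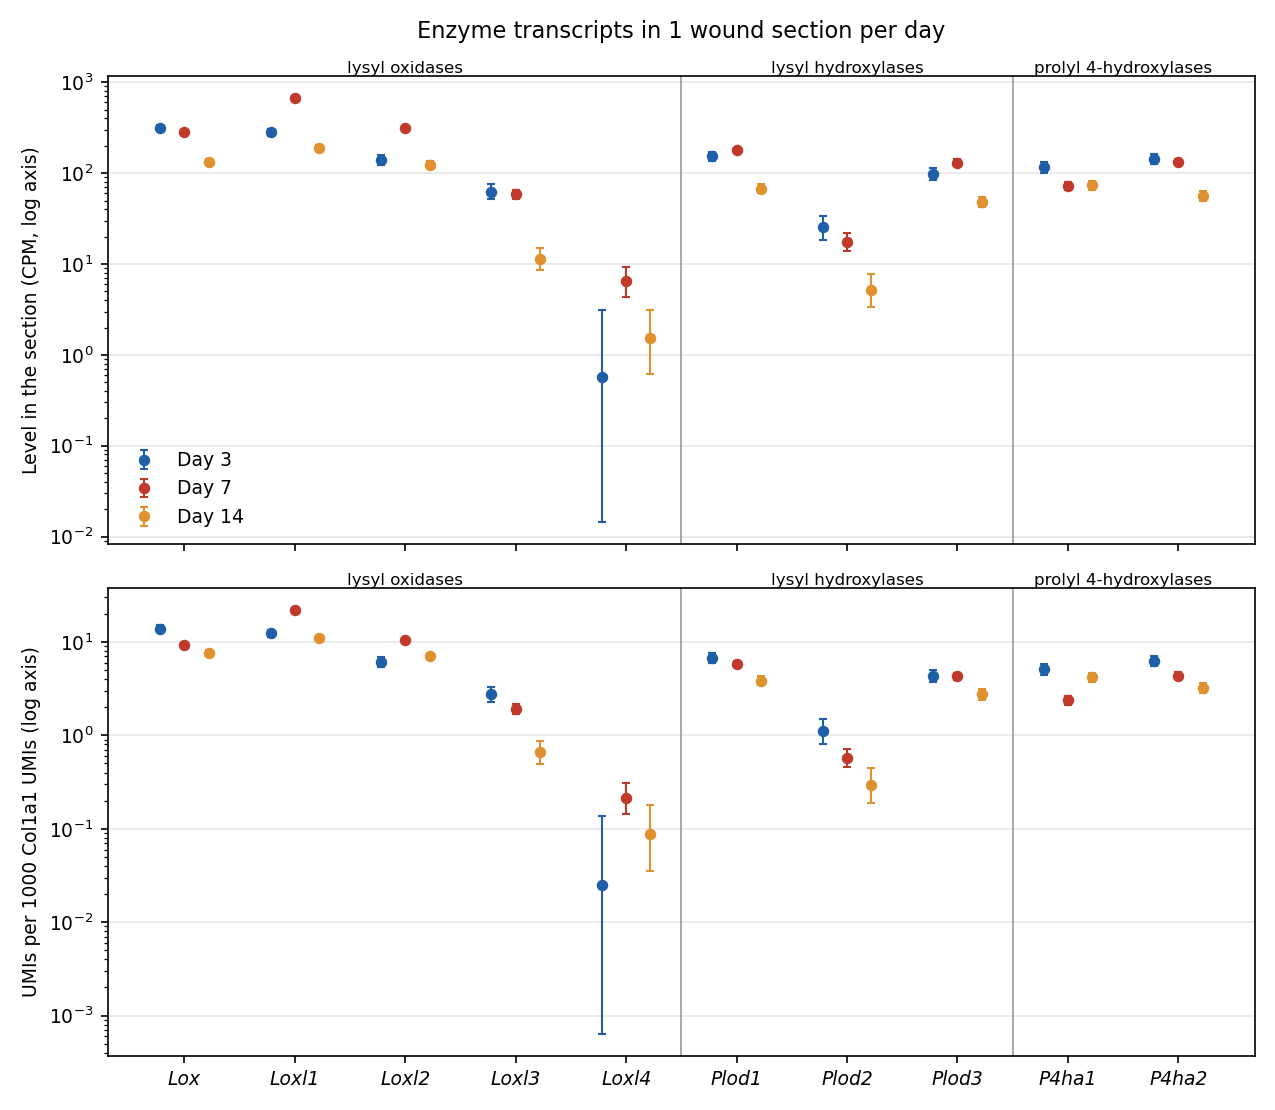
Level of each enzyme gene in the 3 sections, as CPM (top) and as UMIs per 1000 Col1a1 UMIs (bottom), both on log axes. Points are single sections, coloured by day, and bars are 95% intervals of counting error. Loxl1 and Loxl2 were highest on Day 7, Loxl3 and Plod2 were lowest on Day 14, and P4ha1 stood at 72.5 CPM on Day 7 and 73.5 CPM on Day 14.

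Among the lysyl oxidases, *Lox*, the founding member that acts on collagen and elastin, had 557, 1258 and 616 UMIs on Days 3, 7 and 14. Its level was 314 (289 to 342), 283 (268 to 299) and 134 (123 to 145) CPM. *Lox* was thus nearly level on Days 3 and 7 (log2 ratio -0.15) and lower by 1.08 on the log2 scale (0.94 to 1.23) from Day 7 to Day 14.

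*Loxl1*, best known for its part in elastic fibre assembly, had 500, 2953 and 878 UMIs, or 282 (258 to 308), 665 (641 to 689) and 190 (178 to 203) CPM. It gave the most UMIs of the members on Days 7 and 14, in counts that are not divided by transcript length. Its level on Day 7 was 2.36 times that on Day 3 (log2 ratio 1.24, 1.10 to 1.38). By Day 14 it stood below both earlier days, with log2 ratios of -1.80 (-1.91 to -1.69) to Day 7 and -0.57 (-0.73 to -0.41) to Day 3.

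*Loxl2*, which crosslinks type IV collagen of basement membranes as well as fibrillar collagens, had 245, 1408 and 572 UMIs. That was 138 (122 to 157), 317 (301 to 334) and 124 (114 to 135) CPM. The Day 7 level was 2.29 times that of Day 3 (log2 ratio 1.20), with an interval that ran from the 2-fold line to 1.40. Day 14 did not differ from Day 3 beyond counting error, with a log2 ratio of -0.16 (-0.37 to 0.07). In CPM, *Loxl2* was the only counted member whose interval for these 2 days spanned 0, and other scalings can shift it.

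*Loxl3* had 111, 259 and 53 UMIs, or 62.6, 58.3 and 11.5 CPM. It was level over Days 3 and 7, with a log2 ratio of -0.10 (-0.43 to 0.23), and showed the largest drop among the counted members afterwards, with a log2 ratio of -2.34 (-2.80 to -1.91) from Day 7 to Day 14. *Loxl4* was barely detected, with 1, 29 and 7 UMIs, so that its log2 ratio from Day 3 to Day 7 of 3.53 had an interval from 0.94 to 8.88.

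*Plod1*, which hydroxylates lysines in the triple helix, had 271, 793 and 311 UMIs and 153, 178 and 67.4 CPM. *Plod3*, which also attaches sugars to hydroxylysine, had 173, 580 and 222 UMIs and 97.6, 131 and 48.1 CPM. Both were slightly higher on Day 7 than on Day 3, with log2 ratios of 0.22 (0.02 to 0.43) and 0.42 (0.17 to 0.67), and on Day 14 both stood well below Day 7, at 0.378 and 0.369 times that level.

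*Plod2* hydroxylates lysines in the telopeptides, the chain ends where crosslinks form, and is the lysyl hydroxylase most tied to fibrosis. It had only 45, 78 and 24 UMIs, or 25.4 (18.5 to 34.0), 17.6 (13.9 to 21.9) and 5.20 (3.33 to 7.74) CPM. The gap between Days 3 and 7 was within counting error (log2 ratio -0.53, -1.08 to 0.03), while Day 14 lay below Day 3 by a log2 ratio of -2.29 (-3.07 to -1.54).

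The prolyl 4-hydroxylase subunits took different courses. *P4ha1*, the catalytic subunit of the main form of the enzyme in most cells, had 205, 322 and 339 UMIs and 116 (100 to 133), 72.5 (64.8 to 80.8) and 73.5 (65.9 to 81.8) CPM. It was highest on Day 3, lower by 0.67 on Day 7 (log2 ratio -0.67, -0.93 to -0.41), and unlike the other counted members it did not go down again, with a log2 ratio of 0.02 (-0.20 to 0.24) from Day 7 to Day 14. *P4ha2*, the catalytic subunit of the second form, had 252, 590 and 260 UMIs and 142, 133 and 56.4 CPM. Its level held from Day 3 to Day 7 (log2 ratio -0.10, -0.31 to 0.12) and was lower by 1.24 on the log2 scale from Day 7 to Day 14 (1.02 to 1.45).

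Ratios of UMIs between members of one family do not depend on the total of a section. They are read here only between days, since transcripts of different genes can be captured with different efficiency. *Loxl1* UMIs per *Lox* UMI went from 0.898 (0.794 to 1.01) on Day 3 to 2.35 (2.20 to 2.51) on Day 7 and 1.43 (1.28 to 1.58) on Day 14. *Loxl2* per *Lox* likewise went from 0.440 (0.377 to 0.512) to 1.12 (1.04 to 1.21) and 0.929 (0.827 to 1.04). The intervals of Day 3 and of the later days did not overlap in either ratio, and they cover the counting error of 1 section a day.

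*P4ha2* per *P4ha1* was 1.23 (1.02 to 1.48) on Day 3, 1.83 (1.60 to 2.10) on Day 7 and 0.767 (0.650 to 0.904) on Day 14. These 3 intervals were separate from one another. *Plod1* per *Plod3*, in contrast, was 1.57 (1.29 to 1.91), 1.37 (1.23 to 1.52) and 1.40 (1.18 to 1.67), with every interval overlapping the others.

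The members were set beside 24 other genes of collagen maturation, which cover the partner subunit of the prolyl hydroxylases, prolyl 3-hydroxylases, chaperones, sugar transferases, procollagen proteases and other crosslinkers. Of these, 21 were counted in every pair of days, the exceptions being *Colgalt2*, *Tll1* and *Adamts3*. From Day 3 to Day 7, 7 of 21 were at least 2-fold higher, beside 8.04% of all counted genes, and 2 at least 2-fold lower, a share near the 6.49% of all. From Day 7 to Day 14, 14 of 21 were lower, among them *P4hb*, *Serpinh1*, *Bmp1*, *Adamts2* and *Pxdn*, beside 7.34%, and 0 were higher, beside 10.9%. Day 14 against Day 3 gave 5 lower, beside 6.83%, and 0 higher, beside 14.4%. Their median log2 ratios were 0.70, -1.10 and -0.56, so that from Day 3 to Day 7 the median of this list lay above that of the 10 members.

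Those 2-fold higher on Day 7 than on Day 3 were *P4ha3*, *P3h3*, *P3h4*, *Ppib*, *Colgalt1*, *Adamts14* and *Pxdn*. The widest gap was that of *P4ha3*, the third prolyl 4-hydroxylase subunit, with 23 UMIs on Day 3 and 250 on Day 7 (log2 ratio 2.12, up to 2.80). Its UMIs per *P4ha2* UMI were 0.0913 (0.0568 to 0.140), 0.424 (0.364 to 0.492) and 0.219 (0.162 to 0.293) on the 3 days. *Pxdn*, the peroxidasin that forms sulfilimine crosslinks in type IV collagen, was higher by 1.49 (1.22 to 1.77). *Tmem38b* and *Pcolce2* were lower, with log2 ratios of -1.35 (-1.94 to -0.77) and -1.49 (-1.91 to -1.07).

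The 4 genes of that list with most UMIs were *Serpinh1*, *P4hb*, *Ppib* and *Pcolce*. *Serpinh1* encodes HSP47, the chaperone specific to collagen, and had 2491, 10733 and 4128 UMIs, with log2 ratios of 0.78 (0.72 to 0.84) from Day 3 to Day 7 and -1.43 (-1.48 to -1.38) from Day 7 to Day 14. *P4hb*, protein disulfide isomerase and the partner subunit of *P4ha1* and *P4ha2*, was level over the first days (log2 ratio 0.08, -0.01 to 0.18) and lower by 1.07 on Day 14 than on Day 7 (log2 ratio -1.07, -1.16 to -0.99). *Ppib*, the prolyl isomerase cyclophilin B, was 1.05 higher on Day 7 (0.92 to 1.18), and *Pcolce*, the enhancer of procollagen C-proteinase, 0.42 (0.31 to 0.54). From Day 7 to Day 14 the log2 ratio of *Ppib* was -1.09 and that of *Pcolce* -1.32. The other genes at least 2-fold lower over that interval were *P4ha3*, *P3h1*, *P3h3*, *P3h4*, *Crtap*, *Fkbp10*, *Colgalt1*, *Bmp1*, *Adamts2* and *Pxdn*, from -1.03 for *Adamts2* to -2.26 for *Pxdn*.

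Below Day 3 on Day 14 by at least 2-fold were *P3h1*, *Crtap*, *Fkbp10*, *Pcolce2* and *Tgm2*. *P3h1* and *Crtap* form, with *Ppib*, the complex that hydroxylates a proline in the 3 position, and their log2 ratios were -1.21 (-1.56 to -0.85) and -1.03 (-1.28 to -0.77). *Fkbp10*, a chaperone needed for telopeptide lysine hydroxylation, had -1.23 (-1.48 to -0.99). *Tgm2*, transglutaminase 2, which crosslinks by a different chemistry, was lowest of the 5 with -1.81 (-2.10 to -1.51).

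To ask whether the enzymes simply followed collagen, UMIs were also taken per 1000 *Col1a1* UMIs, with the count of *Col1a1* treated as fixed. *Col1a1* itself stood at 22693, 30560 and 17471 CPM on Days 3, 7 and 14. The 10 members summed gave 58.7 (56.3 to 61.1) per 1000 *Col1a1* UMIs on Day 3, 60.9 (59.6 to 62.2) on Day 7 and 40.7 (39.4 to 42.2) on Day 14. Days 3 and 7 did not differ beyond counting error (log2 ratio 0.05, -0.01 to 0.12), and Day 14 was lower than Day 7 by 0.58 (0.52 to 0.64). Both statements depended on the reference collagen. From Day 3 to Day 7 the log2 ratio was 0.45 per UMI of *Col1a2*, the other chain of type I collagen, and -0.72 per UMI of *Col3a1*, the chain of type III collagen. From Day 7 to Day 14 it was -0.73 and 0.22 in turn.

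The near equal sums of Days 3 and 7 were made of unequal parts. Per 1000 *Col1a1* UMIs, the lysyl oxidases summed went from 35.2 to 43.5 and 26.4, the lysyl hydroxylases from 12.2 to 10.7 and 6.91, and the prolyl 4-hydroxylase subunits from 11.4 to 6.72 and 7.43. *Loxl1* went from 12.4 to 21.8 and 10.9, and *Loxl2* from 6.09 to 10.4 and 7.10. *Lox* was highest on Day 3 on this scale, with 13.9, 9.27 and 7.65. *P4ha1* had its lowest ratio on Day 7, with 5.10, 2.37 and 4.21, and its log2 ratio from Day 7 to Day 14 was 0.83 (0.60 to 1.05). These directions also depended on the reference collagen. From Day 3 to Day 7 the log2 ratio of the lysyl oxidases summed was 0.31 per *Col1a1* UMI, 0.70 per *Col1a2* UMI and -0.47 per *Col3a1* UMI. That of the lysyl hydroxylases was -0.19, 0.21 and -0.96, and that of the prolyl 4-hydroxylase subunits -0.76, -0.36 and -1.53. From Day 7 to Day 14 the lysyl oxidases had -0.72 per *Col1a1* UMI and 0.08 per *Col3a1* UMI, and the lysyl hydroxylases -0.63 and 0.17. *Loxl2* per *Col3a1* UMI was level from Day 3 to Day 7 (log2 ratio -0.01).

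The next comparison was of place within a section. Spots with at least 500 UMIs were ranked by the share of UMIs from the granulation list of *Postn*, *Tnc*, *Cthrc1*, *Fn1*, *Acta2*, *Lrrc15*, *Col12a1*, *Thbs2*, *Adam12* and *Tnn*. None of the 10 enzymes is on it. The top 20% of spots, here called granulation-rich, were 104 of 520 on Day 3, 108 of 539 on Day 7 and 138 of 689 on Day 14. The leading list genes in them were *Fn1* on Day 3, with 26.5% of list UMIs, and *Postn* on Days 7 and 14, with 42.2% and 33.6%. The list stood at 3463 CPM in these spots and 920 CPM in the other spots on Day 3. On Day 7 it stood at 14383 and 6688 CPM, and on Day 14 at 4122 and 1367 CPM. The other spots of Day 7 thus held more of the list than the granulation-rich spots of Day 3. Spots were ranked within each section, so the ratios below are not on a common scale across days. Spots of 1 section are not replicates, so the intervals again cover counting error only.

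On Day 3, granulation-rich spots held 2497 CPM of the 10 enzymes summed and the other spots 997 CPM, a log2 ratio of 1.33 (1.21 to 1.44). Of 8 members with at least 50 UMIs in these spots, 5 were at least 2-fold higher there, beside 6.55% of all counted genes. The ratio on Day 7 was 0.55 (0.49 to 0.62), and 0 of 9 members were 2-fold higher, beside 1.60%. On Day 14 it was 0.91 (0.80 to 1.02), and 2 of 8 were, beside 2.89%. These counts depended on the spots compared. With the spots not marked as tissue ranked as well, 8, 7 and 4 of 9 members were 2-fold higher on Days 3, 7 and 14, beside 12.2%, 7.03% and 4.27% of all counted genes. The median log2 ratio of the counted members was 1.49, 0.65 and 0.71 on the 3 days against 0.09, -0.02 and -0.03 for all counted genes. Every counted member had a ratio above 0 on each day, though the intervals of *P4ha1* on Day 7 and *Plod3* on Day 14 (0.33, -0.16 to 0.80) reached below it. Among all counted genes, 3108 of 5637, 4534 of 9422 and 4766 of 10029 had a ratio above 0 on Days 3, 7 and 14. Of the other collagen maturation genes, *P4hb*, *P3h1*, *Fkbp10*, *Serpinh1* and *Colgalt1* were 2-fold higher there on Day 3 (5 of 17, beside the 6.55% of all counted genes), *P3h3* and *P3h4* on Day 7 (2 of 20, beside 1.60%), and *P4ha3*, *P3h3*, *Fkbp10* and *Pxdn* on Day 14 (4 of 21, beside 2.89%).

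**Figure D2:**
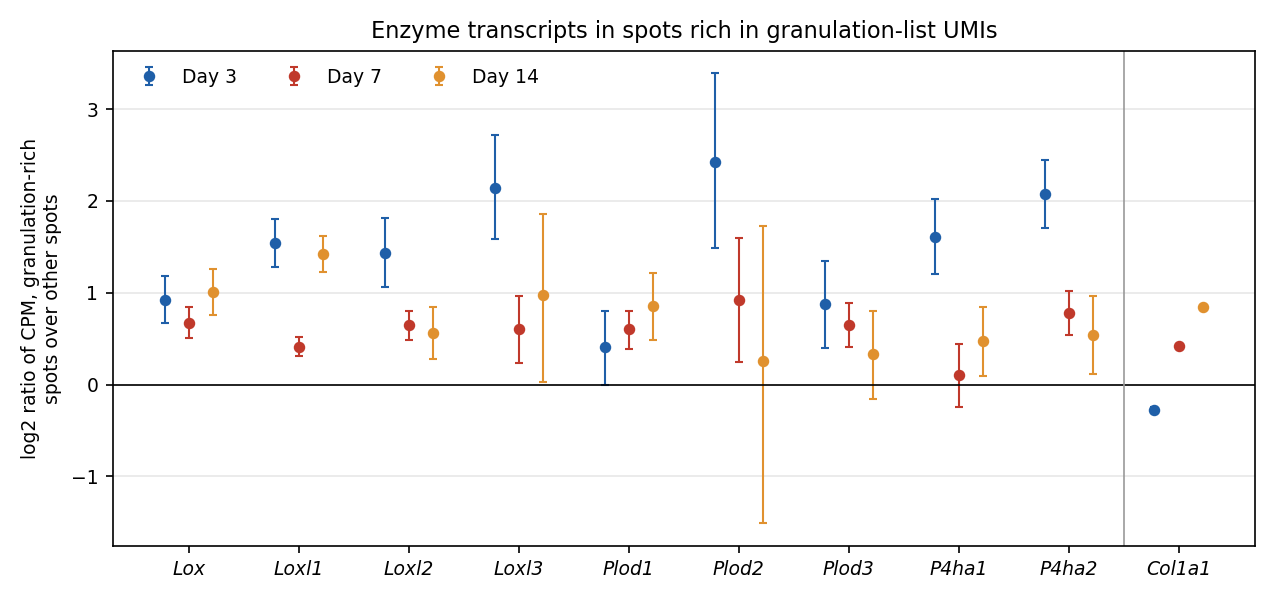
Log2 ratio of CPM in granulation-rich spots (the top 20% of spots by granulation-list share) over the other spots of the same section, for 9 enzymes and Col1a1. Points are single sections, coloured by day, bars are 95% intervals of counting error, and the line at 0 marks equal levels. On Day 3 the enzymes lay between 0.41 (Plod1) and 2.42 (Plod2) while Col1a1 lay at -0.28.

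The 5 members 2-fold higher on Day 3 were *Loxl3* (157 against 35.5 CPM, log2 ratio 2.14, 1.58 to 2.72), *P4ha2* (346 against 82.1 CPM, 2.08, 1.71 to 2.45), *P4ha1* (242 against 79.1 CPM, 1.61, 1.20 to 2.02), *Loxl1* (575 against 198 CPM, 1.54, 1.28 to 1.80) and *Loxl2* (271 against 101 CPM, 1.43, 1.06 to 1.81). *Lox* and *Plod3* stood lower on this scale, with 0.92 (0.67 to 1.18) and 0.88 (0.40 to 1.34). *Plod1* was the most evenly spread, with 189 against 143 CPM and a ratio of 0.41 (0.00 to 0.80). *Plod2* was not counted, but 27 of its 44 UMIs fell in the granulation-rich spots, and its ratio of 2.42 (1.49 to 3.39) was the highest of the members.

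On Day 7 the members stood close together, from 0.10 (-0.24 to 0.44) for *P4ha1* to 0.78 (0.54 to 1.02) for *P4ha2* and 0.92 (0.24 to 1.60) for *Plod2*. *P4ha1* was the member whose interval reached below 0 among those counted. On Day 14 the lysyl oxidases parted. *Loxl1* held 391 against 146 CPM (log2 ratio 1.42, 1.22 to 1.62) and *Lox* 228 against 113 CPM (1.01, 0.76 to 1.26), while *Loxl2* stood at 0.56 (0.28 to 0.84).

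*Col1a1* did not share the Day 3 pattern. It was lower in granulation-rich spots on Day 3, with 19629 against 23813 CPM (log2 ratio -0.28), and higher on Day 7 (0.42) and Day 14 (0.84). The 10 enzymes summed per 1000 *Col1a1* UMIs were accordingly 127 against 41.9 on Day 3, a log2 ratio of 1.60 (1.48 to 1.72). On Days 7 and 14 they were 64.2 against 58.6 and 42.1 against 40.2, with ratios of 0.13 (0.07 to 0.20) and 0.06 (-0.05 to 0.17). Per *Col3a1* UMI the Day 3 ratio was 1.04, while that of Day 7 turned to -0.26 and that of Day 14 to -0.32.

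Other cell types moved with the granulation-rich spots. The neutrophil list, with 10 of 10 genes found on Day 3, then stood at 3550 CPM there and 1866 CPM elsewhere, and the macrophage list, also with 10 of 10, at 6638 and 3879 CPM. The muscle list stood at 19397 and 42318 CPM and the fat list at 3140 and 8398 CPM. The epidermis list of that day stood at 6015 CPM there and 10921 CPM elsewhere, and the sebaceous gland list at 2261 and 4823 CPM. The matrix fibroblast list stood at 32919 and 34390 CPM on Day 3, at 69462 and 44585 on Day 7 and at 40263 and 20021 on Day 14. The macrophage list was also higher in the granulation-rich spots of Day 7, with 3686 and 2348 CPM, and of Day 14, with 2036 and 932 CPM. On Day 7 the muscle list stood at 26998 and 64295 CPM and the fat list at 4478 and 8655 CPM, and on Day 14 the muscle list stood at 49748 and 59895 CPM. The part of these lists in the enzyme levels was not tested. Leaving out the muscle-rich spots gave a log2 ratio of 1.15 for the 10 enzymes summed on Day 3. A single Day 3 spot held 102 of the 2360 enzyme UMIs, among 22909 UMIs of all genes, and without it the ratio was 1.26.

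**Figure D3:**
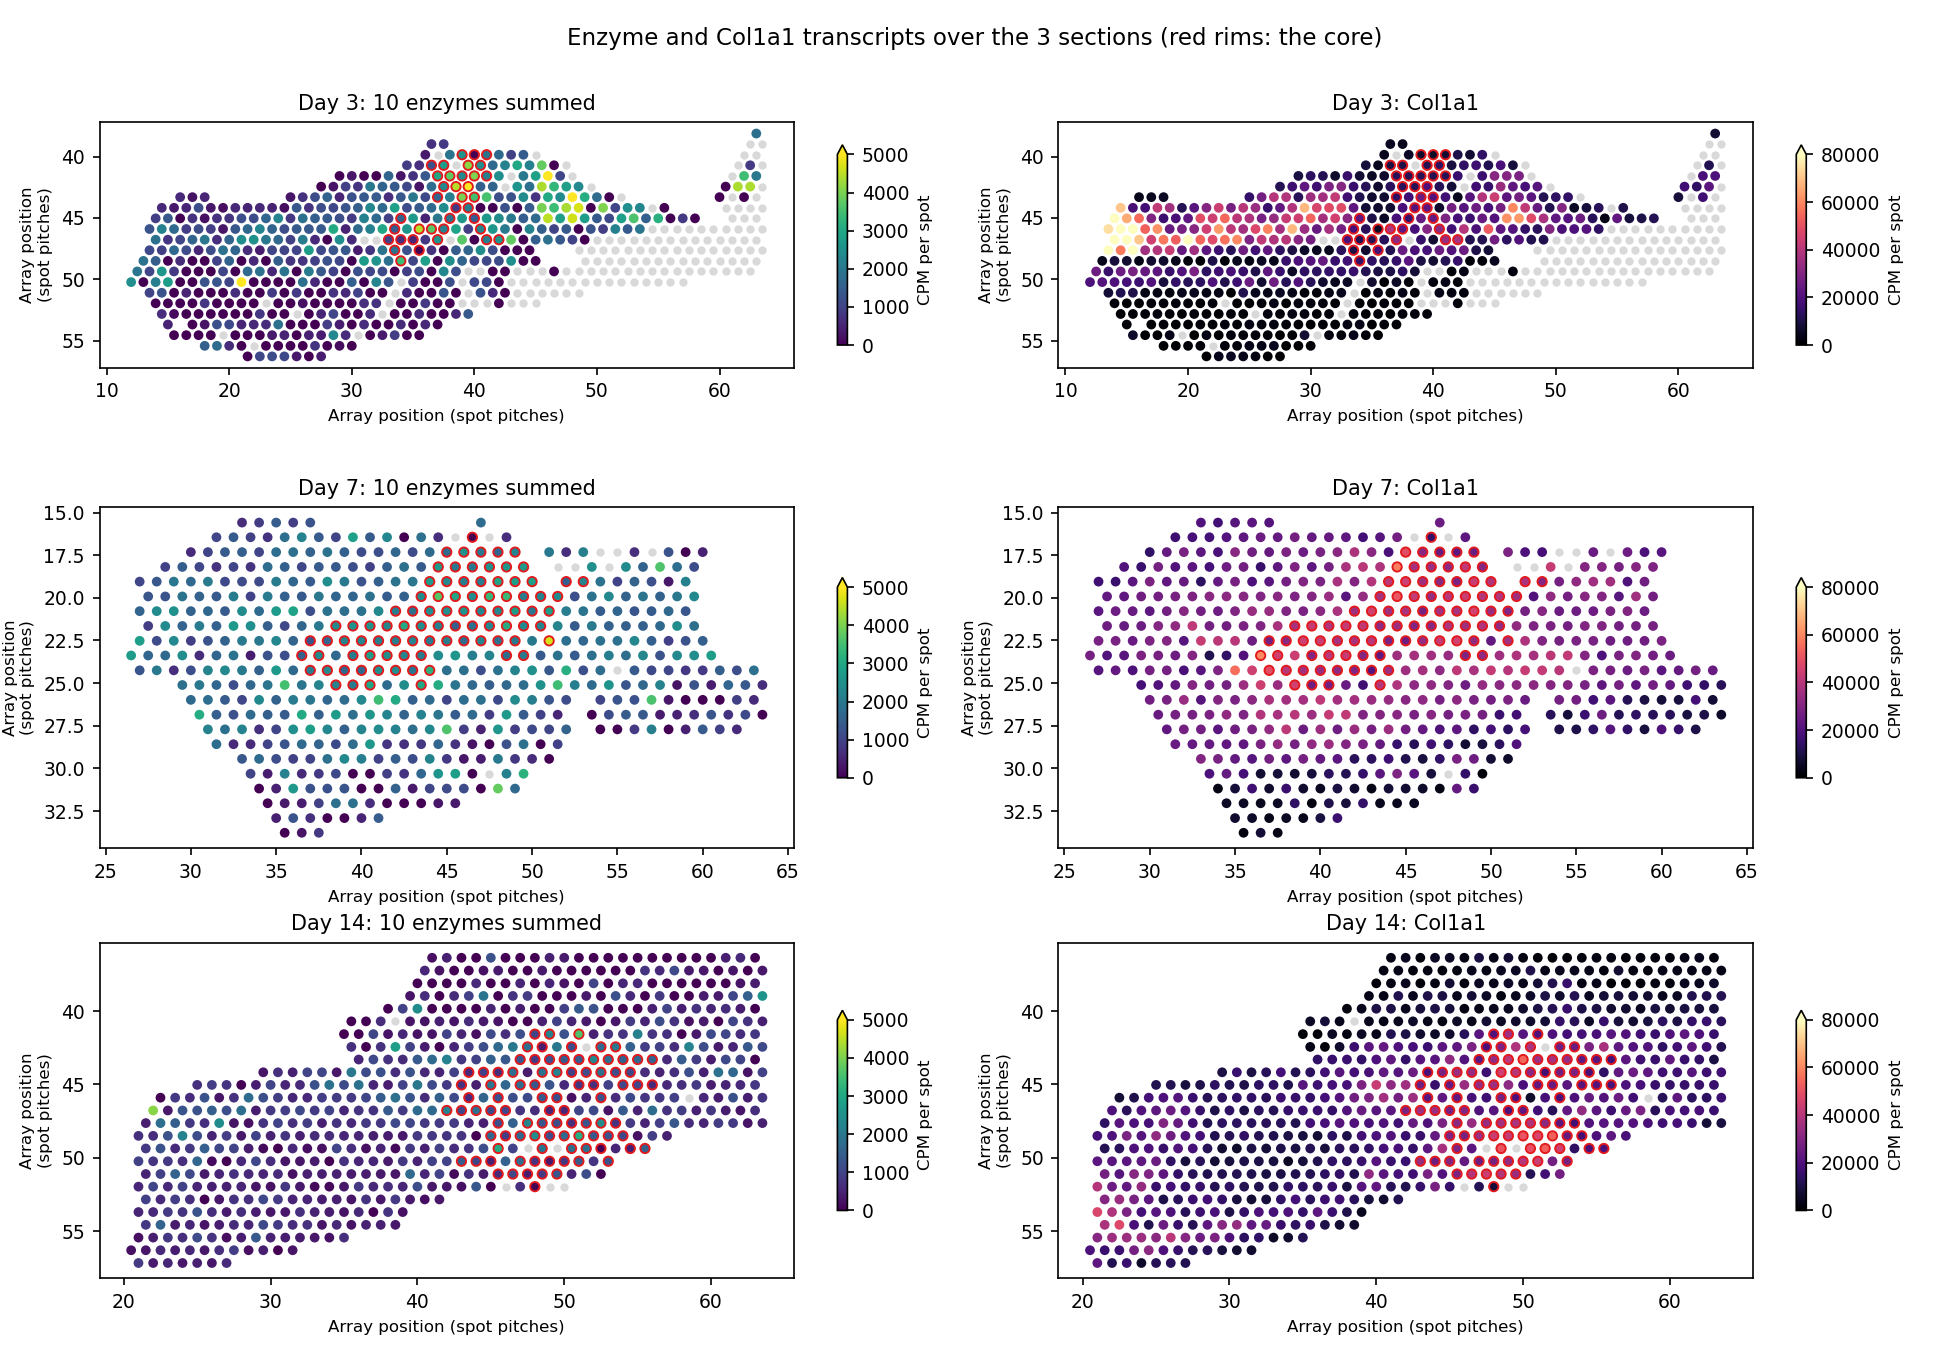
Maps of the 3 sections with each spot under tissue at its array position in units of the distance between neighbouring spots, coloured by CPM of the 10 enzymes summed (left) and of Col1a1 (right). Grey spots held fewer than 500 UMIs and red rims mark the core, the largest connected group of granulation-rich spots, of 37, 88 and 90 spots on Days 3, 7 and 14. On Day 3 the core holds many spots bright for the enzymes (2903 CPM over the core) and dark for Col1a1 (14917 CPM), and another patch bright for the enzymes lies to its right, outside the core.

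Distance gave the same contrast a scale. On Days 3, 7 and 14 the 104, 108 and 138 granulation-rich spots fell into 34, 19 and 28 connected groups. The largest group of each day was taken as a core, which held 37, 88 and 90 spots. The other spots, granulation-rich ones among them, were placed in bands by distance from it in spot pitches, the spacing of neighbouring spots. The bands thus give distance from 1 group and not from all granulation-rich spots. They are also not alike between days. The granulation list stood at 3695 CPM inside the Day 3 core and at 6141 CPM beyond 4 pitches on Day 7. On Day 3 the 10 enzymes summed stood at 2903 (2691 to 3127) CPM inside the core, 1592 up to 1.5 pitches, 1305 from there to 4 pitches and 959 (901 to 1019) beyond. *Col1a1* stood at 14917 CPM inside and 12570 in the band next to the core, where it was lower as the enzymes were, and was higher further out, with 18967 and 27300 CPM.

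Per 1000 *Col1a1* UMIs, the enzymes therefore stood at 195 inside the Day 3 core, then 127, 68.8 and 35.1 with distance. The inside value was 5.54 times that beyond 4 pitches (log2 ratio 2.47, 2.33 to 2.61). On Day 7 the bands held 64.0, 58.7, 57.2 and 61.2, and on Day 14 43.0, 37.9, 44.2 and 39.6. The log2 ratio of inside over beyond 4 pitches was 0.06 (-0.02 to 0.15) on Day 7 and 0.12 (-0.01 to 0.24) on Day 14, so neither differed beyond counting error. Per *Col3a1* UMI these 3 ratios were 1.64, -0.25 and -0.37.

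**Figure D4:**
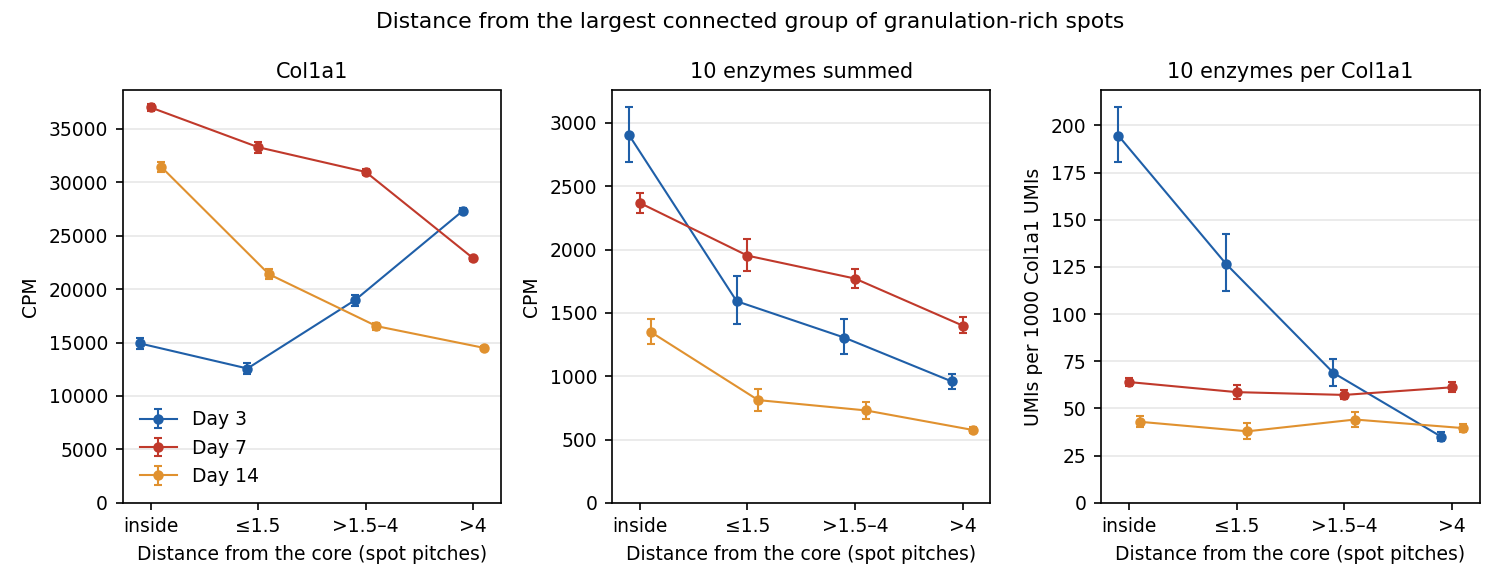
Col1a1 CPM (left), CPM of the 10 enzymes summed (middle) and their UMIs per 1000 Col1a1 UMIs (right) by distance from the core in spot pitches, the spacing of neighbouring spots. Each line is 1 section, bars are 95% intervals of counting error and every axis starts at 0. On Day 3 the ratio went from 195 inside to 35.1 beyond 4 pitches, while on Days 7 and 14 it stayed within 57.2 to 64.0 and 37.9 to 44.2.

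The inside value per *Col1a1* UMI was above that beyond 4 pitches for every counted member on Day 3. *Col1a1* itself stood inside at 0.546 times its level beyond 4 pitches, so a gene of even CPM has a raised ratio there. Per *Col1a1* UMI, inside over beyond 4 pitches, *Loxl3* stood 15.4 times higher, *Loxl1* 6.58 times, *P4ha1* 6.33 times and *Loxl2* 5.86 times, while *P4ha2* had a log2 ratio of 3.17 (2.77 to 3.57). *Plod3* (4.20 times), *Lox* (3.86 times) and *Plod1* (2.69 times) had the lowest ratios. On the CPM scale *Plod1* was nearly even up to 4 pitches and lower beyond, with 189, 201, 190 and 128 CPM from the core outwards. Its log2 ratio of CPM inside over beyond 4 pitches was 0.56 (0.04 to 1.05). *Plod3* stood at 163, 172, 102 and 71.2 CPM. Both *Plod1* and *Plod3* were highest in the band next to the core and not in it, in CPM and also per *Col1a1* UMI, though the intervals of the inner 2 bands overlapped. Per 1000 *Col1a1* UMIs the core held 12.6 (9.22 to 16.9) of *Plod1*, the next band between 11.2 and 22.3, and the outermost 4.70 (3.94 to 5.55). The interval of *Plod1* on the log2 scale, 0.91 to 1.92, did not meet that of *Loxl3*, 3.23 to 4.69. *Plod2* stood 8.67 times higher on 18 UMIs inside and 17 beyond. Inside the Day 3 core the neutrophil list stood at 3762 CPM against 1585 beyond 4 pitches and the macrophage list at 7188 against 3487, while the muscle list stood at 12910 against 45602 and the fat list at 2254 against 9501. The matrix fibroblast list stood at 26972 against 38354 CPM. The part of these lists in the gradient was not tested.

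On Day 14 the members split on the same scale. *Loxl1* was 1.75 times higher per *Col1a1* UMI inside the core (log2 ratio 0.81, 0.58 to 1.04) and *Lox* 1.27 times (0.34, 0.05 to 0.63). *Loxl2* was lower per *Col1a1* UMI inside, at 0.704 times (log2 ratio -0.51, -0.84 to -0.18), as was *P4ha1*, at 0.710 times (-0.49, -0.94 to -0.06), and *Plod3*, at 0.675 times (-0.57, -1.16 to -0.01). *P4ha1* was also lower on this scale inside the core of Day 7, at 0.659 times (log2 ratio -0.60, -1.01 to -0.19). In CPM these genes were not lower inside. Inside over beyond 4 pitches on Day 14, the log2 ratio of CPM was 0.61 (0.27 to 0.93) for *Loxl2*, 0.62 (0.17 to 1.05) for *P4ha1* and 0.55 (-0.04 to 1.10) for *Plod3*, and that of *P4ha1* on Day 7 was 0.09 (-0.32 to 0.50). The values below 0 were thus relative to *Col1a1*, which stood at 31421 CPM inside the Day 14 core and 14499 CPM beyond 4 pitches. The matrix fibroblast list there was at 47383 against 18703 CPM and the macrophage list at 2288 against 831 CPM, and their part was not tested.

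The spots were then ranked in the same way by each of 13 marker lists, the granulation list among them, of which the hair follicle list could be used only on Day 14. Over the 25 pairs of a member and a section with enough UMIs, the granulation list gave the highest ratio in 15 and the first or second in 21, and the muscle list gave the lowest in 23. Members and lists were chosen with earlier results of these data known, so these counts are descriptions only. The order of lists is not given for all genes, so such counts do not set the members apart from other genes. Muscle-rich spots of this ranking held at least 11.55%, 9.21% and 12.28% muscle-list UMIs on Days 3, 7 and 14. On Day 3 the granulation list came first for 7 of 8 members, *Plod1* being the exception with the macrophage list (log2 ratio 0.92, 0.56 to 1.29).

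*Loxl2* differed from *Lox* and *Loxl1* on Day 14. Its level was highest in spots rich in a fascia fibroblast list of *Pi16*, *Clec3b*, *Dpp4* and 7 others, with 253 against 107 CPM (log2 ratio 1.24, 0.95 to 1.52). *Loxl1* in the same spots had a ratio of 0.60 (0.33 to 0.85), and the 2 intervals did not overlap. *Loxl1* stood highest with the granulation list and nearly as high in macrophage-rich spots, with 391 against 150 CPM (1.39, 1.18 to 1.59). In matrix-fibroblast-rich spots it stood close to that, with 370 against 149 CPM (1.31, 1.11 to 1.52). Of the 138 granulation-rich spots of that day, 57 were also macrophage-rich and 66 also matrix-fibroblast-rich.

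Spots rich in a hypoxia-response list, led by *Bnip3* and *Higd1a*, were compared because several members are known targets of that response. The lowest list share among them was 0.104%, 0.0697% and 0.0592% on Days 3, 7 and 14. Their median depth was 1671, 4030 and 3934 UMIs, so spots near the cut held few list UMIs and their ranking was coarse. On Day 3 *Plod2* held 69.5 against 16.4 CPM there (log2 ratio 2.09, 1.15 to 3.00, on 20 and 24 UMIs), *P4ha2* 243 against 123 CPM (0.99, 0.57 to 1.39), *P4ha1* 177 against 104 CPM (0.76, 0.28 to 1.23) and *Loxl1* 385 against 265 CPM (0.54, 0.23 to 0.85). *Lox* (0.02), *Loxl2* (0.08), *Plod1* (-0.01) and *Plod3* (-0.02) stood level, and *Loxl3* had 0.33 (-0.41 to 1.02). *Col1a1* was lower in these spots, at 13015 against 24788 CPM. These Day 3 ratios were not particular to hypoxia-rich spots. In granulation-rich spots *P4ha1* had 1.61, *P4ha2* 2.08 and *Loxl1* 1.54, and in macrophage-rich spots *P4ha1* had 1.23 and *P4ha2* 1.31. *Plod2* had 2.11 (1.14 to 3.03) in neutrophil-rich spots. Of the 104 hypoxia-rich spots, 35 were also granulation-rich, and the part of that overlap was not tested.

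On the later days no member with at least 50 UMIs stood above the rest of the section in hypoxia-rich spots beyond counting error, and on Day 7 *Lox* (log2 ratio -0.39, -0.66 to -0.12) and *Loxl1* (-0.17, -0.34 to -0.01) stood below it. With few list UMIs near the cut, ratios near 0 cannot show that no difference exists. *P4ha1* had ratios of 0.23 (-0.24 to 0.68) on Day 7 and -0.28 (-0.78 to 0.18) on Day 14, and *P4ha2* -0.27 (-0.66 to 0.11) and 0.08 (-0.43 to 0.57). *Plod3*, with 4 motif matches in its promoter window, had 0.14 (-0.22 to 0.48) and 0.03 (-0.54 to 0.57).

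For detection per spot, each spot was thinned to 1000 UMIs, which left out 238, 24 and 18 shallower spots on Days 3, 7 and 14. At that depth 55.4% (50.5 to 60.2) of spots held a UMI of any of the 10 enzymes on Day 3, 75.2% (71.3 to 78.9) on Day 7 and 49.3% (45.5 to 53.2) on Day 14. Muscle-rich spots, defined by a muscle-list share at least 2 times that of the section, gave 26.0%, 44.8% and 24.1%. Without thinning the shares were 58.4%, 93.6% and 86.2%, against 33.2%, 74.5% and 55.2% in muscle-rich spots, whose median depth was 1239, 2322 and 2889 UMIs. *Lox* was found in 20.2% of thinned spots on Day 3 and 3.25% of muscle-rich ones, and *Loxl1* in 44.8% and 24.1% on Day 7.

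Finally, the sections were cut into 12 blocks each, and the genes whose log2(CPM + 10) followed each member most closely over the 36 blocks were listed among 7935 genes. The blocks share sections and depth, so these correlations are descriptions. *Lox* was nearest to *Serpinh1* (Pearson r = 0.926), *Cmtm3* and *Col5a1*, and *Plod1* to *Bgn*, *Col5a2* and *Serpinh1*. *P4ha2* was nearest to *Calr*, *Kdelr2* and *Bmp1*, the first 2 of which act in the endoplasmic reticulum. *Loxl1* was nearest to the lysosomal protease gene *Ctsz* (r = 0.925), *Sfrp2* and the leukocyte gene *Coro1a*, and *Loxl2* to *Timp1*, *Hspa5* and the chemokine gene *Ccl7*. The other nearest genes were *Basp1*, *Marcksl1* and *Timp1* for *Loxl3*, *Tuba1c*, *Angptl4* and *Ptbp1* for *Plod3*, and *Ostf1*, *Copg1* and *Ccl7* for *P4ha1*. The lists were unstable: of the 24 genes named, 5 came back with 8 blocks a section and 6 with 16. The r with *Col1a1* ranged from 0.213 for *Loxl3* to 0.832 for *Lox*. Between members, r was highest for *Lox* and *Plod1* (0.835) and lowest for *Plod1* and *P4ha1* (0.315).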

How the data were processed

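Wounded mouse skin was profiled with Visium on Days 3, 7 and 14, with 1 section per day. The authors deposited raw UMI counts per gene and spot with a list of spots under tissue. Per the labels, the counts were made with Space Ranger 1.3.0 on mm10; the gene annotation is not given in the sources used here. For each gene the counts of all spots under tissue were added up and scaled to the section total (CPM) or to *Col1a1* UMIs. Intervals at 95% are exact Poisson for levels, exact conditional binomial for ratios and Clopper-Pearson for shares. With 1 section per day no test between days was made. Counts of genes past 2-fold were made among genes with at least 50 UMIs, and some ratios of *Plod2* and *Loxl4* on fewer UMIs are given as well. Intervals were run on simulated counts that carried counting error only. That check cannot speak to the spread between spots, sections or animals.

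The text names the 10 members, *Col1a1*, genes of the collagen maturation list past 2-fold with an interval excluding 1, its 4 genes with most UMIs, the 3 genes most like each member with at least 200 UMIs, and leading list genes. Members and lists were chosen with earlier results of these data known. Tools were Python 3.11.15, numpy 2.4.6, scipy 1.17.1, pandas 2.3.3, scikit-learn 1.9.0, matplotlib 3.10.9 and, for the alternatives, R 4.3.3 with edgeR 4.0.16 and DESeq2 1.42.0 for scaling factors only. Coordinates are from GENCODE M21, which holds 32158 of the 32285 gene identifiers, and promoters from RefSeq (GRCm38.p6).

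Alternatives were other scalings, reference collagens, fold and UMI minimums, spot sets and block numbers.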

Additional observations from a re-analysis of the deposited data

Results flagged for a closer look

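UMIs of the 10 enzymes were also found in spots that the deposited lists do not mark as tissue, which the comparisons above do not use: 874 on Day 3, 5453 on Day 7 and 2003 on Day 14. As CPM of the UMIs there, this was 513, 845 and 425, so the level under tissue was higher by 1.38, 1.14 and 0.74 on the log2 scale. These spots made up the rest of the capture area and held a median of 91, 453 and 350 UMIs. Where these UMIs came from was not tested.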

How the results depend on the processing

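All values here are log2 ratios unless called counts. No paired analysis was possible because each day had 1 section, and for the same reason no replicate could be left out. For the CPM of the 10 enzymes summed, Day 14 over Day 7 was -1.14 with the mean of spot CPM, -1.15 over the whole capture area, and -1.51 with both TMM and DESeq2 factors. Day 14 over Day 3 was -0.66, -0.72, -1.06 and -1.07 in the same order and -1.01 without muscle-rich spots, which gave 0.35 for Day 7 over Day 3. Per collagen UMI, Day 7 over Day 3 was 0.45 with *Col1a2* and -0.72 with *Col3a1*. Day 14 over Day 7 was -0.73 with *Col1a2*, 0.22 with *Col3a1*, -0.45 with all fibrillar chains and -0.70 with *Col1a1* over the whole capture area, and Day 14 over Day 3 was -0.28 with *Col1a2*, -0.43 with fibrillar chains and -0.68 over the whole capture area. Single enzymes that changed direction per *Col3a1* were *Lox* (0.52), *Loxl2* (0.25), *Plod1* (0.20), *Plod3* (0.17) and *P4ha2* (0.37) for Day 14 over Day 7 and *Loxl2* (-0.01) for Day 7 over Day 3. Per *Col1a2* they were *Loxl1* for Day 14 over Day 3 (0.05) and *Plod1* for Day 7 over Day 3 (0.19). Families were set per other collagens after seeing the data. The lysyl oxidases changed direction per *Col3a1* for Day 7 over Day 3 (-0.47) and Day 14 over Day 7 (0.08), and the lysyl hydroxylases per *Col1a2* for Day 7 over Day 3 (0.21) and per *Col3a1* for Day 14 over Day 7 (0.17).

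In granulation-rich spots, the Day 3 sum was 1.61 over the whole capture area, 1.15 without muscle-rich spots and 1.60 per *Col1a1*. On Day 7 it was 1.12 over the whole capture area and 0.13 per *Col1a1*, and on Day 14 1.11 for the top 10% of spots, 0.80 for the top 30% and 0.06 per *Col1a1*. Per *Col1a1*, *Loxl1* on Day 7 (-0.01) and *Loxl2* (-0.28), *P4ha1* (-0.37) and *P4ha2* (-0.30) on Day 14 changed direction. The next alternatives, on sums per collagen UMI by place, were chosen after seeing the data. In granulation-rich spots the Day 3 value was 1.04 per *Col3a1*, 1.83 for the top 10%, 1.38 for the top 30% and 0.99 over the whole capture area. That of Day 7 was -0.26 per *Col3a1*, 0.03 per fibrillar chain and -0.06 over the whole capture area, and that of Day 14 was -0.32 per *Col3a1* and -0.23 over the whole capture area. Inside the core, Day 3 gave 2.64 per *Col1a2* and 1.64 per *Col3a1*, while per *Col3a1* Day 7 gave -0.25 and Day 14 -0.37. The cause of these shifts was not tested.

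Counts of enzymes past 2-fold moved as follows. *P4ha1* on Day 7, at 0.627 times its Day 3 level, passed a line of 1.5-fold but not that of 2-fold. Lower on Day 14 than on Day 7 were 5 with the mean of spot CPM (beside 6.79% of all counted genes) and 5 over the whole capture area (5.70%), and lower than on Day 3 were 2 (6.87%) and 3 (5.89%). Without a minimum of UMIs *Loxl4* passed 2-fold higher on Day 14 than on Day 3. That rested on 7 and 1 UMIs, with a log2 ratio of 1.43 (-1.53 to 6.92), so it was within counting error. In granulation-rich spots of the whole capture area, 8 were higher on Day 3 (beside 12.2%), 7 on Day 7 (7.03%) and 4 on Day 14 (4.27%), and with the top 30% of spots 1 was on Day 7 (1.34%) and 1 on Day 14 (1.68%). Of the genes named as most like a member, 5 were shared with 8 blocks a section and 6 with 16. Depth limits *Plod2* and *Loxl4* most, and Day 3 more than the other days.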
